A study of Zea mays with 20 samples.

Results

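The 150 genes described here are those whose transcripts stood highest in the tassel primordium of the control plants relative to every other control tissue, out of 39656 genes in a maize RNA-seq count table. For each gene the counts were expressed as CPM, the count per 1000000 counts of its library, and the mean over the control tassel libraries plus 0.5 was divided by the highest of the control ear, shoot apical meristem (SAM) and leaf means plus 0.5. Of the 17806 genes with a mean of at least 3 CPM in control tassel, the 150 with the highest ratios were kept. These ratios, called scores below, ran from 3.33 to 206 with a median of 6.10. The genes were thus selected on the measured levels in the control tassel, ear, SAM and leaf libraries, whose values are a description without a test.

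The study followed KNOTTED1 (kn1), a homeobox gene, in B73 plants that lacked or gained its function. Homozygotes of the loss-of-function allele kn1-e1 were sampled as tassel primordia (3 libraries), ear primordia (2) and SAM (2), each beside siblings with the same number of libraries. These siblings are called wild type in the sample titles, kn1-e1/+ in the genotype labels and heterozygous or wild type in the study design, so a carrier of the mutant allele may be among them. Young leaves came from homozygotes (Kn1-N/Kn1-N), heterozygotes (Kn1-N/+) and wild type (+/+) of the dominant gain-of-function allele Kn1-N, with 2 libraries each. Tassel and ear primordia were field grown and pooled, 10 tassels or 6 to 8 ears to a library. Mutant and sibling primordia differed in size: kn1-e1 tassels measured 2 to 3 mm against 4 to 5.5 mm in siblings, and kn1-e1 ears 4 to 5 mm against 7 to 8 mm. Size or stage and genotype cannot be told apart in those comparisons. Size or stage and tissue cannot be told apart either where kn1-e1 tassels are set beside kn1-e1 ears. The SAM was pooled from 15 plants at 19 days after germination in the greenhouse, and the leaf sample was a tube of leaf tissue from 10-day plants taken 2 to 3 mm above the SAM. The design calls the libraries of a group biological replicates.

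In maize the tassel, at the shoot tip, becomes the male inflorescence, and the ear, in a leaf axil, the female one. Both pass through the same kinds of meristem (inflorescence, branch, spikelet pair, spikelet and floral) before they diverge in branching and in which floral organs mature. KN1 is a transcription factor that keeps shoot meristem cells undifferentiated and is normally absent from leaves, where the Kn1-N allele expresses it ectopically. In whole primordia, fewer cells of a type and less RNA per cell cannot be told apart, and this holds for every level given here.

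Libraries held 16068246 to 20722952 counts. The level of kn1 followed the labels. In kn1-e1 tassel it was 42.5, 37.7 and 58.8 CPM against 186, 208 and 205 CPM in the siblings, in ear 34.7 and 34.3 against 126 and 135 CPM and in SAM 12.0 and 10.2 against 33.6 and 37.1 CPM. In leaf it was 9.79 and 10.8 CPM in Kn1-N homozygotes, 5.02 and 6.10 CPM in heterozygotes and 0.0513 and 0 CPM in wild type. Transcript from the locus was thus lower but still present in every kn1-e1 library. The tissue labels could be checked against genes that differ between tassel and ear: ts2, a tassel sex-determination gene, averaged 8.99 ± 0.0427 CPM (SD, n = 3) in sibling tassel and 0.726 ± 0.0813 CPM (SD, n = 2) in sibling ear, while the growth suppressor gt1 was at 5.07, 4.38 and 4.95 CPM and 30.3 and 25.7 CPM.

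Libraries disagreed within kn1-e1 ear and within kn1-e1 tassel for many of these genes, and this bears on every result that includes them. With 2 ear libraries, which of them is the unusual one cannot be told. Of the 117 genes with a kn1-e1 ear mean of at least 1 CPM, 38 (32.5%) were at least 2-fold higher in kn1-e1 ear library 1 than in library 2, and 0 were at least 2-fold lower, taking the ratio of CPM plus 0.5 as for the scores. Over all 19979 genes of at least 1 CPM there, 0.365% were 2-fold higher in library 1. In kn1-e1 tassel, library 2 was at least 2-fold above library 1 for 51 of 148 genes (34.5%, against 0.453% of all genes) and above library 3 for 33 (22.3%, against 0.418%). On the same scale the pairs of sibling tassel libraries differed 2-fold in either direction for 1 to 3 of the genes, the sibling ears for 2 and the leaf libraries of a genotype for 0 or 1. On CPM alone 43 genes were 2-fold higher in ear library 1 (0.621% of all genes) and 56 in tassel library 2 than 1 (0.735%). The main counts and the genes most affected are given with and without these libraries. Without 1 of the 2 kn1-e1 ear libraries, ear is a single library, and the spread behind a p comes from tassel and SAM alone. Such a p or call does not measure the disagreement between the ears. The same limit holds wherever a group of 2 libraries loses 1.

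**Figure D1:**
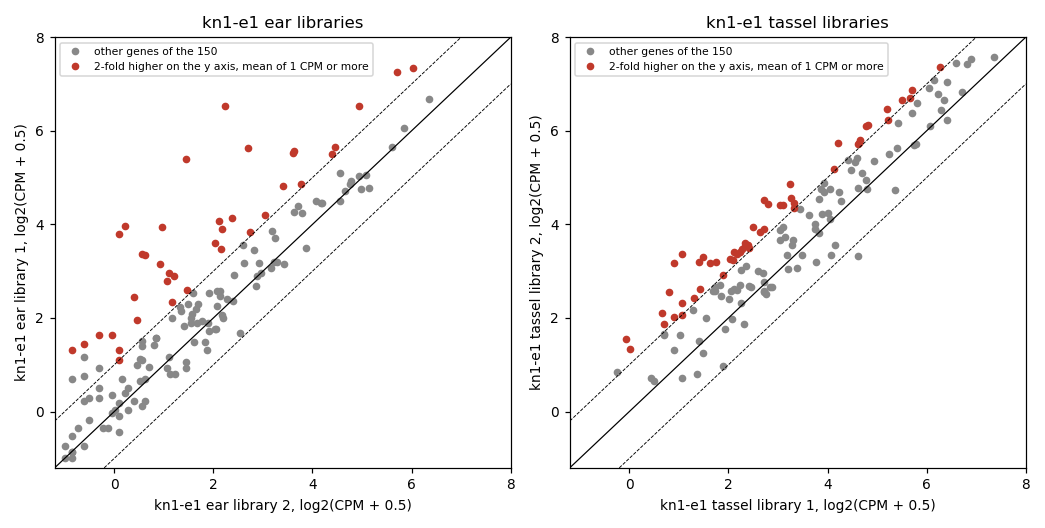
Each point is 1 of the 150 genes, placed by its level (log2 of CPM plus 0.5) in kn1-e1 ear libraries 2 (x) and 1 (y) or kn1-e1 tassel libraries 1 (x) and 2 (y), with a solid line at equal levels and dashed lines at 2-fold; red points are at least 2-fold higher on the y axis with a group mean of 1 CPM or more. Red points number 38 in ear and 51 in tassel, and those in ear scatter farther from the line.

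The choice of genes depended little on any 1 library. Repeating it without each of its 9 libraries in turn kept 144 to 149 of the 150, and TMM-scaled values kept 148. The sibling tissue with the next highest mean was the ear for 73 genes, the SAM for 42 and the leaf for 35. Scores reached 10 in 37 genes and 20 in 12. The last genes inside were GRMZM2G180086 and GRMZM2G169782, both with a score of 3.35, and GRMZM2G151407 with 3.33, and the first outside were GRMZM2G076584 and GRMZM2G173630, both with 3.29, and GRMZM2G155686 with 3.28. There is no gap in the scores at this boundary. All 3 sibling tassel libraries lay above all 6 other control libraries in each of the 150 genes, as the choice favours.

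As a group the genes ranged in sibling tassel from a mean of 3.05 to 305.5 CPM, with a median of 18.4 CPM, and outside it most were scarce. The median gene averaged 9.73 CPM in kn1-e1 tassel, 3.35 CPM in kn1-e1 ear and 1.48 CPM in sibling ear. It averaged 0.693 CPM in kn1-e1 SAM, 0.660 CPM in sibling SAM, and 0.467, 0.546 and 0.509 CPM in wild-type, heterozygous and homozygous leaf. Together the genes took 0.548, 0.626 and 0.645% of the counts in the sibling tassel libraries and 0.293, 0.455 and 0.327% in the kn1-e1 tassel libraries. In kn1-e1 ear they took 0.195 and 0.108%, in sibling ear 0.0734 and 0.0695%. The mean reached 1 CPM in 148 of the 150 in kn1-e1 tassel, 117 in kn1-e1 ear, 86 in sibling ear, 64 in kn1-e1 SAM, 65 in sibling SAM and 57 to 59 in the leaf genotypes.

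**Figure D2:**
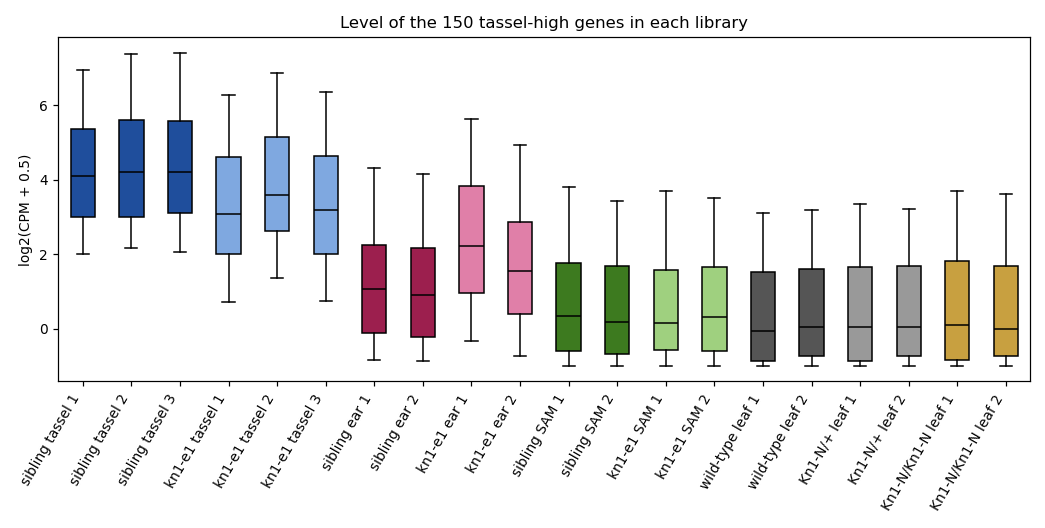
Each box shows the levels of the 150 genes in 1 library (log2 of CPM plus 0.5) in the 9 groups, with the quartiles as box, the median as line and the 5th and 95th percentiles as whiskers. Sibling tassel is highest because it chose the genes; kn1-e1 tassel follows with library medians of 7.89 to 11.5 CPM, and kn1-e1 ear library 1 (median 4.13 CPM) stands above library 2 (2.42 CPM).

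Of the 150 genes, 112 matched a gene of the RefSeq reference table and 21 carried a gene name there. These 21 include 8 transcription factors, namely LOB15 (LOB domain), MADS34 (MADS box), bZip112 (basic leucine zipper), WRKY53, the AP2/ERF-type EREB179 and EREB26, MYBE1 (MYB) and NAC1. Other named genes are ra3 (RAMOSA3, a trehalose-6-phosphate phosphatase that limits branching of maize inflorescences), the membrane channels NIP3-1 and PIP2-6 (aquaporin family), the phosphate transporter pht1 and MAX1b, a cytochrome P450 of strigolactone synthesis. The rest are the proteinase inhibitor MPI, the haemoglobin GLB1 (also listed as Hb), the prolyl 4-hydroxylase P4H4, the type 2C protein phosphatases PP2C17 and PP2C19, the Mediator subunit MED26.15, and SGR2 and ZAR1, given here by name only.

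The tassel preference of these genes was next tested in kn1-e1 plants, whose 7 libraries had no part in the choice. Tassel had the highest mean of the 3 kn1-e1 tissues in 145 of the 150 genes (96.7%), against 29.3% of the 17649 genes with at least 3 CPM in kn1-e1 tassel. The 5 exceptions, named for that reason after their values were seen, were AC197705.4_FG001, GRMZM2G014705, GRMZM2G028258, GRMZM2G409722 and GRMZM2G099454, which were highest in kn1-e1 ear. The count was 149 without kn1-e1 ear library 1 and 133 without ear library 2.

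Against kn1-e1 ear, 112 of the 150 genes were higher in kn1-e1 tassel, 1 was lower and 37 were not called (edgeR quasi-likelihood test, adjusted p under 0.05 after Benjamini-Hochberg correction across the 21880 genes in the fit). Of all genes tested, 17.9% were called higher and 17.3% lower in this comparison. The median log2 difference was 1.43 for the 150 genes and 0.00 for all genes tested, and 105 of the 112 exceeded 2-fold. Of the 117 genes with at least 1 CPM in kn1-e1 ear, 84 were called higher, with a median of 1.28. DESeq2 called 88 higher and 1 lower. Without ear library 1 the count was 128, without ear library 2 it was 87 and without tassel library 2 it was 103.

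MADS34 had the smallest p of this comparison. Its level was 26.8, 30.3 and 28.5 CPM in kn1-e1 tassel, 1.59 and 2.21 CPM in kn1-e1 ear and 2.83 and 2.68 CPM in kn1-e1 SAM, and in the siblings it was 29.3, 34.7 and 32.9 CPM in tassel, 3.08 and 1.96 CPM in ear and 2.27 and 3.05 CPM in SAM. Every kn1-e1 tassel library thus lay far above every kn1-e1 ear and SAM library. The sibling libraries stood in the same order, which the choice favours, and the highest leaf library was at 0.256 CPM. The log2 difference from kn1-e1 ear was 3.95 ± 0.14 (approximate SE, adjusted p = 1.3e-09).

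The branching regulator ra3 was more abundant in tassel without being absent from ear. It stood at 66.5, 68.3 and 74.1 CPM in kn1-e1 tassel against 25.9 and 24.9 CPM in kn1-e1 ear, a log2 difference of 1.49 ± 0.08 (adjusted p = 5e-08), and at 69.1, 61.1 and 62.6 CPM and 14.8 and 19.0 CPM in sibling tassel and ear. Its SAM libraries lay at 2.71 and 3.88 CPM in kn1-e1 and 2.96 and 2.61 CPM in siblings. The kn1-e1 tassel libraries did not overlap those of kn1-e1 ear or SAM, while the order of the sibling tissues was favoured by the choice.

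The other called transcription factors fell into steady and variable members. MYBE1 was even across the kn1-e1 tassel libraries, at 16, 16.8 and 15.3 CPM, against 1.98 and 3.14 CPM in kn1-e1 ear, with a log2 difference of 2.69 ± 0.17 (adjusted p = 1.3e-07). EREB26 stood at 18.8, 22.2 and 24.3 CPM against 5.89 and 6.79 CPM, a difference of 1.82 ± 0.13 (adjusted p = 5.6e-07). In LOB15, the named gene with the highest score (33.0), kn1-e1 tassel library 2 was well above the others. Its level was 36.4, 88.4 and 24.2 CPM in kn1-e1 tassel and 12.5 and 8.997 CPM in kn1-e1 ear, a log2 difference of 2.24 ± 0.44 (adjusted p = 0.0018) that was 1.52 (adjusted p = 1.4e-05) without tassel library 2. WRKY53 had the same high library, with 2.15, 8.69 and 3.12 CPM in tassel against 0.820 and 0.668 CPM in ear and a difference of 2.66 ± 0.58 (adjusted p = 0.0033), or 1.85 (adjusted p = 0.001) without that library. For both, every tassel library lay above both ear libraries.

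bZip112 and NAC1 were called higher with smaller differences, and the calls did not hold in every fit. bZip112 was at 13.6, 22.95 and 9.82 CPM in kn1-e1 tassel and 7.33 and 7.30 CPM in ear, a log2 difference of 1.11 ± 0.29 (adjusted p = 0.01); it was 1.12 (adjusted p = 0.068) in DESeq2, 1.10 (adjusted p = 0.057) without ear library 1 and 0.71 (adjusted p = 0.01) without tassel library 2. NAC1 was at 5.15, 14.9 and 6.65 CPM and 2.90 and 3.65 CPM, a difference of 1.48 ± 0.38 (adjusted p = 0.0092), or 1.30 (adjusted p = 0.074) without ear library 1 and 0.89 (adjusted p = 0.0058) without tassel library 2. EREB179 was the 1 transcription factor not called. Its tassel libraries were at 2.32, 1.87 and 2.51 CPM and its ear libraries at 2.22 and 0.154 CPM, so that ear library 1 lay among the tassel libraries. The difference was 0.92 ± 0.54 (adjusted p = 0.21) with both ear libraries and 3.83 with ear library 2 alone.

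The channel and transporter genes were among the most even. NIP3-1, known in maize as the boron channel tassel-less1, stood at 85.0, 74.2 and 68.5 CPM in kn1-e1 tassel and 26.5 and 31.1 CPM in kn1-e1 ear, a log2 difference of 1.43 ± 0.10 (adjusted p = 5.5e-07). PIP2-6, a plasma-membrane aquaporin, was at 15.6, 18.5 and 19.5 CPM and 5.07 and 3.91 CPM, with a difference of 2.03 ± 0.15 (adjusted p = 5.9e-07). The phosphate transporter pht1 was at 4.98, 5.79 and 4.86 CPM and 1.06 and 0.925 CPM, with a difference of 2.42 ± 0.26 (adjusted p = 1.6e-05). In all 3 genes the tassel libraries lay above the ear libraries without overlap. MAX1b, at lower levels, had 6.05, 6.31 and 5.06 CPM in kn1-e1 tassel and 0.290 and 0.411 CPM in kn1-e1 ear, a log2 difference of 4.07 ± 0.28 (adjusted p = 3.7e-07).

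Among the remaining named genes MED26.15, SGR2, PP2C17, PP2C19, ZAR1 and MPI were called higher in kn1-e1 tassel, and GLB1 and P4H4 were not called. MED26.15 was at 20.8, 41.0 and 23.6 CPM in tassel and 4.39 and 2.31 CPM in ear, a log2 difference of 3.11 ± 0.31 (adjusted p = 9.6e-06), or 2.75 (adjusted p = 3.2e-08) without tassel library 2. PP2C19 was at 37.4, 45.0 and 44.8 CPM and 21.4 and 17.8 CPM, with a difference of 1.15 ± 0.11 (adjusted p = 4.8e-06). The differences of SGR2, PP2C17 and ZAR1 were 2.22, 1.25 and 1.10, and for ZAR1 the adjusted p was 0.057 without ear library 1. In MPI 1 tassel library led: the values were 23.9, 9.54 and 6.599 CPM in tassel and 5.45 and 3.70 CPM in ear. Its difference of 1.56 ± 0.44 (adjusted p = 0.015) was not called by DESeq2 (adjusted p = 0.09) or without ear library 2 (adjusted p = 0.099), and was 0.85 (adjusted p = 0.024) without tassel library 1. GLB1, at 3.22, 7.04 and 10.0 CPM in tassel and 6.95 and 1.799 CPM in ear, had a difference of 0.66 ± 0.46 (adjusted p = 0.29). That of P4H4, at 23.1, 39.9 and 35.1 CPM and 46.7 and 11.9 CPM, was 0.19 ± 0.37 (adjusted p = 0.73). Ear library 1 exceeded at least 1 tassel library in both genes, and with ear library 2 alone their differences were 1.94 and 1.49. With ear library 1 alone that of P4H4 was reversed, at -0.47.

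**Figure D3:**
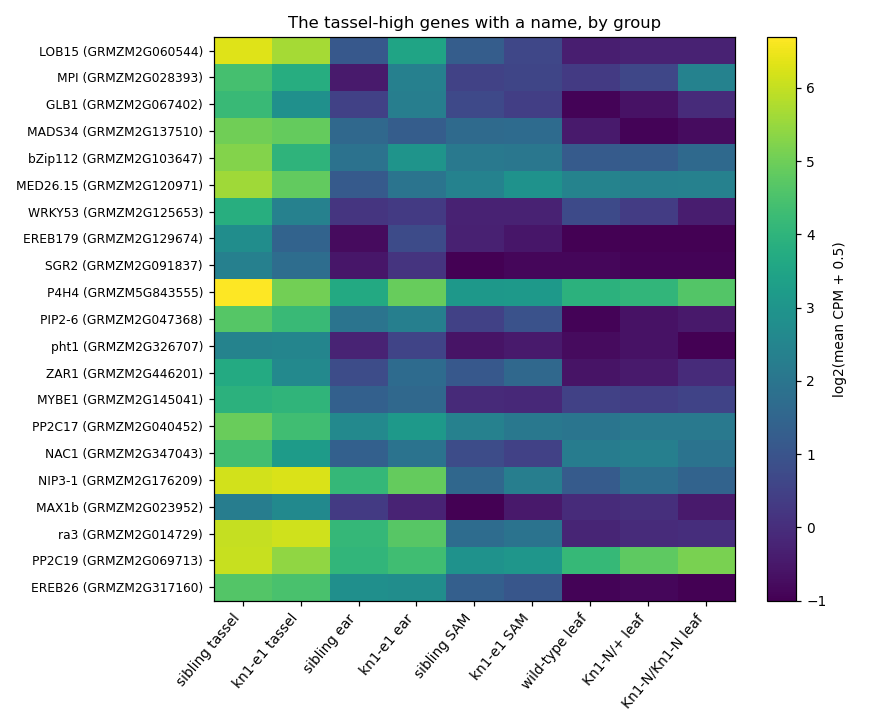
The heat map gives log2 of the mean CPM plus 0.5 for the 21 named genes in the 9 groups of libraries. The sibling and kn1-e1 tassel columns are the brightest in most rows, the ear columns are intermediate for genes such as ra3, NIP3-1 and P4H4, and P4H4 and PP2C19 keep a level above 10 CPM in leaf.

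Unnamed genes were among the clearest differences. GRMZM2G014902 was at 105, 114 and 88.9 CPM in kn1-e1 tassel and 21.5 and 17.5 CPM in kn1-e1 ear, a log2 difference of 2.43 ± 0.11 (adjusted p = 1.3e-08). GRMZM2G169782 was at 53.2, 51.0 and 56.4 CPM and 10.8 and 14.2 CPM, with a difference of 2.14 ± 0.10 (adjusted p = 1.4e-08). GRMZM5G836174, at 10.7, 9.66 and 9.62 CPM and 0.917 and 0.720 CPM, had a difference of 3.63 ± 0.20 (adjusted p = 3.6e-08). The tassel and ear libraries of these 3 genes were far apart and close within each tissue. GRMZM2G018820, one of the most abundant, had 77.4, 86.2 and 82.4 CPM in kn1-e1 tassel and 28.6 and 26.6 CPM in ear, a difference of 1.61 ± 0.10 (adjusted p = 9.5e-08). The 1 gene called lower in kn1-e1 tassel was GRMZM2G099454, with 1.36, 1.99 and 1.13 CPM in kn1-e1 tassel and 4.25 and 3.70 CPM in ear and a difference of -1.38 ± 0.29 (adjusted p = 0.0025). In sibling plants the same gene was at 5.83, 5.49 and 4.89 CPM in tassel and 0.844 and 1.54 CPM in ear. That is the reverse order, which the choice favours in siblings.

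In most of the genes with the highest scores the kn1-e1 ear libraries disagreed. GRMZM2G131421, with a score of 206, was at 206, 262 and 241 CPM in sibling tassel and 0.422 and 0.515 CPM in sibling ear. In kn1-e1 tassel it was at 44.6, 100.4 and 117 CPM, and in kn1-e1 ear at 92.0 and 4.22 CPM. Ear library 1 therefore lay between the tassel libraries and ear library 2 far below them. The tassel-ear difference of 0.89 ± 0.66 (adjusted p = 0.33) was 4.40 with ear library 2 alone and -0.03 with ear library 1 alone.

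GRMZM2G147399, second by score with 156 and placed 2 genes from GRMZM2G131421 in the order of the reference assembly, behaved alike. It was at 136, 150.1 and 147 CPM in sibling tassel, 24.4, 53.1 and 43.0 CPM in kn1-e1 tassel, 0.362 and 0.412 CPM in sibling ear and 41.6 and 2.21 CPM in kn1-e1 ear. Its difference was 0.90 ± 0.61 (adjusted p = 0.28), or 4.21 with ear library 2 alone and -0.0056 with ear library 1 alone. AC149829.2_FG002 (score 57.8) had 9.10, 23.2 and 10.0 CPM in kn1-e1 tassel and 9.60 and 1.03 CPM in kn1-e1 ear, against 30.0, 33.7 and 35.2 CPM and 0.0603 and 0.0515 CPM in sibling tassel and ear. AC197705.4_FG001 (score 37.9) had 1.58, 9.77 and 5.27 CPM in kn1-e1 tassel and 13.4 and 0.566 CPM in kn1-e1 ear, so ear library 1 was the highest of these 5. Neither was called, with differences of 1.42 ± 0.55 (adjusted p = 0.063) and -0.30 ± 0.76 (adjusted p = 0.79). With ear library 2 alone the differences were 3.79 and 3.30.

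GRMZM2G428216 and GRMZM2G074017 were of the same kind. The first had 6.50, 21.2 and 9.21 CPM in kn1-e1 tassel and 9.80 and 0.977 CPM in kn1-e1 ear. Its difference was 1.21 ± 0.59 (adjusted p = 0.13), or 3.67 with ear library 2 alone. The second had 9.44, 19.8 and 12.2 CPM and 14.9 and 1.44 CPM. Its difference was 0.78 ± 0.54 (adjusted p = 0.29), or 3.28 with ear library 2 alone and -0.0654 with ear library 1 alone. In both, library 1 lay within the range of the tassel libraries and library 2 under all of them.

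GRMZM2G098875 and GRMZM2G325650 were called higher in kn1-e1 tassel even with that library. GRMZM2G098875 (score 80.2) had 26.9, 68.5 and 38.1 CPM in kn1-e1 tassel and 16.2 and 3.80 CPM in kn1-e1 ear. Its difference was 2.17 ± 0.44 (adjusted p = 0.0021), or 3.57 with ear library 2 alone. GRMZM2G325650 had 3.85, 10.1 and 4.502 CPM and 1.98 and 0.0514 CPM, a difference of 2.60 ± 0.66 (adjusted p = 0.0093) that DESeq2 did not call (adjusted p = 0.26). GRMZM2G099678 differed from all of these. It had 0 counts in each of the 4 ear libraries of either genotype and 1427 counts in kn1-e1 tassel (21.8, 35.1 and 21.7 CPM), so it was at least 348.5-fold higher in kn1-e1 tassel than in kn1-e1 ear, taking 3 counts over the ear libraries as the floor (adjusted p = 9.5e-08). Its sibling tassel libraries were at 43.5, 44.0 and 31.7 CPM.

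**Figure D4:**
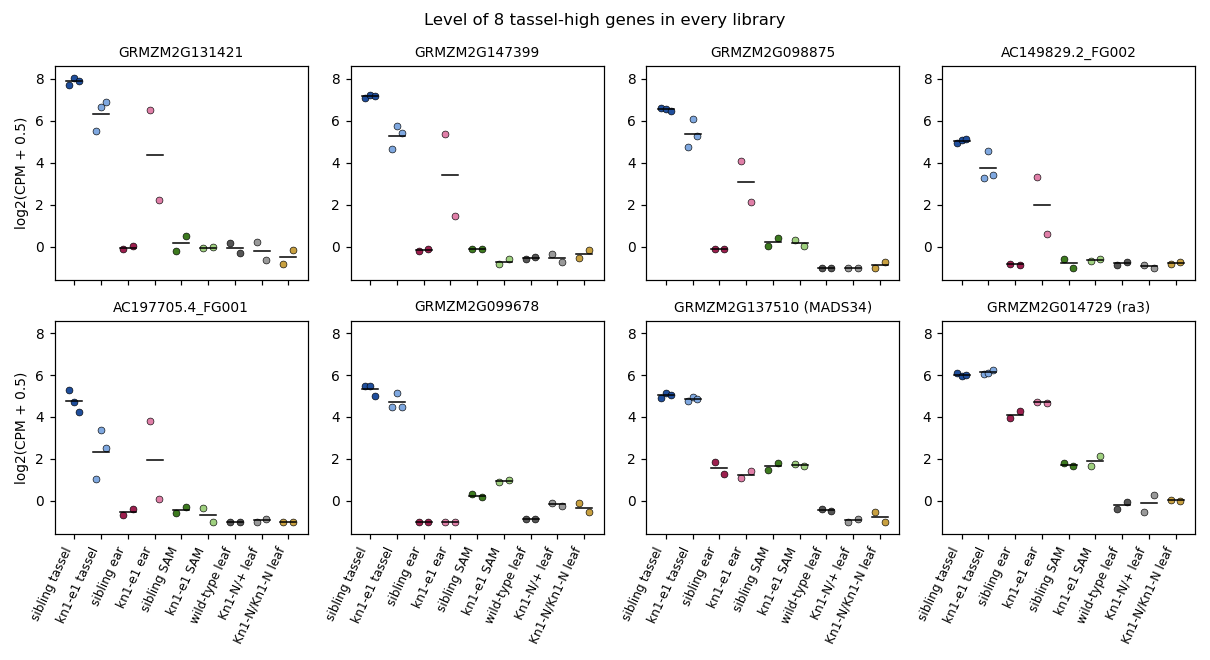
CPM plus 0.5 on a log2 axis in each of the 20 libraries (points) with the mean of the log2 values (bar) for the 6 genes with the highest scores and for MADS34 and ra3. In 5 of the 6 high-scoring genes the 2 kn1-e1 ear points lie far apart, from 4.22 to 92.0 CPM in GRMZM2G131421, while GRMZM2G099678 is at 0 in every ear library and MADS34 and ra3 have close replicates.

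On the same scale, 12 of the 150 genes were at least 4-fold and 4 at least 10-fold higher in kn1-e1 ear library 1 than in library 2. Over all genes of at least 1 CPM there, 0.365% were past 2-fold, and the shares past 4-fold and 10-fold were not computed. On the ratio of CPM plus 0.5, the 38 genes past 2-fold included 8 of the 10 and 18 of the 25 highest scores, and their median rank by score was 26.5 against 88.5 for the other genes. Of the 37 genes not called in kn1-e1 tassel against ear, 22 were past 2-fold between the ear libraries. The level of the 150 genes in ear library 1, as a percentage of their kn1-e1 tassel mean, had a median of 43.1 with quartiles of 24.4 and 69.2, and in library 2 a median of 26.4. Beside this, the MADS-box list summed to 1070 and 1065 CPM in kn1-e1 ear libraries 1 and 2, the photosynthesis list to 153.5 and 150.9 CPM and the jasmonate list to 998.9 and 968.3 CPM. The heat shock list summed to 4091 and 3293 CPM, against 3169 and 3007 CPM in the sibling ears. The tassel marker ts2 was at 0.483 and 0.206 CPM in the kn1-e1 ear libraries and 6.11, 5.45 and 6.80 CPM in kn1-e1 tassel, and GRMZM2G099678 was at 0 counts in ear library 1. The part of tassel tissue, tissue stage or sample handling in the high values of library 1 was not tested.

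Tassel library 2 was the highest of the 3 kn1-e1 tassel libraries in 113 of the 150 genes, library 1 in 18 and library 3 in 19. The same count over all genes was not computed. Library 2 exceeded both others 2-fold in 23 genes, against 0.206% of all genes. Of the 38 genes past 2-fold in ear and the 51 past 2-fold between tassel libraries 2 and 1, 24 were in both, which is 63.2% of the ear genes and 47.1% of the tassel genes. This overlap was not computed over all genes, and nothing is read from it.

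Against kn1-e1 SAM the tassel preference was nearly complete: 147 of the 150 genes were higher in kn1-e1 tassel, 0 were lower and 3 were not called by edgeR's quasi-likelihood test (148 higher and 0 lower at an unadjusted p under 0.05, 146 higher by DESeq2, and 144 without tassel library 2). Of all genes tested, 28.3% were higher and 28.5% lower at the adjusted threshold, and the unadjusted share was not computed. Tassels were field grown and the SAM came from greenhouse plants, so tissue and growing site cannot be told apart in this comparison. The median log2 difference was 3.79, or 3.77 with the 13 genes at 0 counts in SAM set to their bound, against 0.00 for all genes. In SAM, 86 of the 150 genes were under 1 CPM; among the 64 at 1 CPM or more, 62 were called higher, with a median of 2.68. All 21 named genes were called higher. The 3 not called were GRMZM2G055802, GRMZM2G042789 and GRMZM2G099420, named because they were the exceptions.

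The transcripts with the smallest p against SAM were abundant in tassel and low in the vegetative apex. GRMZM2G014902 stood at 1.12 and 1.52 CPM in kn1-e1 SAM, a log2 difference from kn1-e1 tassel of 6.25 ± 0.18 (adjusted p = 4e-11). For ra3 the difference was 4.38 ± 0.12 (adjusted p = 2.1e-11), for NIP3-1 4.08 ± 0.14 (adjusted p = 2e-10) and for MADS34 3.37 ± 0.13 (adjusted p = 7.1e-10). NIP3-1 was at 3.83 and 5.04 CPM in kn1-e1 SAM and 2.91 and 2.05 CPM in sibling SAM. GRMZM2G366873 was at 80.6, 101 and 74.8 CPM in kn1-e1 tassel and 4.89 and 4.46 CPM in SAM, a difference of 4.19 ± 0.15 (adjusted p = 3.3e-10). GRMZM2G106445 was at 113, 173 and 128 CPM and 2.06 and 1.99 CPM, a difference of 6.08 ± 0.24 (adjusted p = 6.2e-10). In each of these genes every tassel library was above 20 CPM and every SAM library under 6 CPM. The high-scoring genes whose ear libraries disagreed were low in both SAM libraries, and GRMZM2G131421 and GRMZM2G147399 differed from SAM by 7.51 ± 1.38 (adjusted p = 0.00052) and 8.41 ± 1.495 (adjusted p = 0.00039). AC197705.4_FG001, with a difference of 5.25 ± 1.59 (adjusted p = 0.013), was not called when either SAM library was left out (adjusted p = 0.066 and 0.13).

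**Figure D5:**
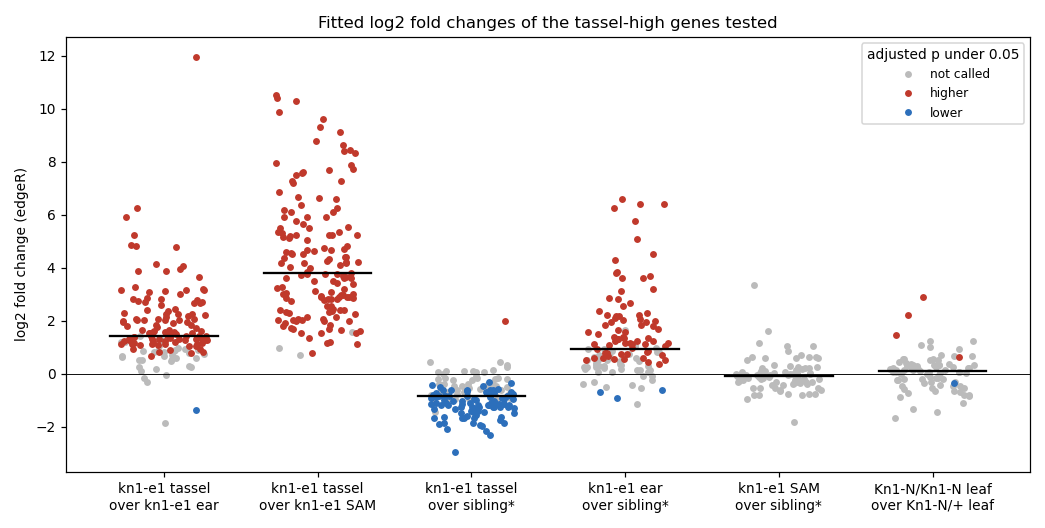
Each dot is the fitted log2 difference of 1 of the 150 genes in 6 comparisons, and the black bar is the median. Values lie above 0 for nearly all genes in kn1-e1 tassel against kn1-e1 ear (median 1.43) and SAM (3.79); asterisks mark comparisons whose sibling libraries chose the genes, and fitted values for genes at 0 counts in a group, such as the dot at 11.95, depend on the prior count and are no bounds.

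In leaf the genes were mostly scarce, and 85 of the 150 passed the filter on low counts, so 65 were not tested. Homozygous against heterozygous Kn1-N leaf, both outside the choice of genes, gave 4 genes higher and 1 lower of the 85. Among all genes tested, 1.64% were higher, 3.12% lower and 4.75% called in either direction. The 5 called in either direction are near that last share, and nothing is read from their number about the 150 as a set. At an unadjusted p under 0.05 the numbers were 15 higher and 7 lower, and the same share over all genes was not computed. The count of 5 rested on single libraries: it was 15 without heterozygous leaf library 2 and 2 without either homozygous library, and DESeq2 called 3.

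GRMZM2G018820 had the clearest leaf difference, with 2.41 and 3.44 CPM in wild type, 5.06 and 4.45 CPM in heterozygotes and 12.5 and 13.1 CPM in homozygotes. The homozygous libraries lay above all others, and the log2 difference from heterozygotes was 1.45 ± 0.15 (adjusted p = 0.00024). The proteinase inhibitor gene MPI was at 0.410 and 1.06 CPM in wild type, 1.02 and 1.06 CPM in heterozygotes and 6.35 and 3.30 CPM in homozygotes. The homozygous libraries were again the highest but differed from each other, and the difference of 2.20 ± 0.36 (adjusted p = 0.004) was 1.68 (adjusted p = 0.053) without homozygous library 1. P4H4, an enzyme that hydroxylates proline in cell wall proteins among others, was at 13.7 and 16.01 CPM, 14.7 and 17.5 CPM and 24.4 and 23.8 CPM in the same order. Its difference of 0.61 ± 0.11 (adjusted p = 0.0064) was not called without homozygous library 1 (adjusted p = 0.075) or 2 (adjusted p = 0.081).

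GRMZM5G836174 remained scarce, at 0.0487 and 0.194 CPM in heterozygotes and 0.484 and 1.31 CPM in homozygotes, with a difference of 2.91 ± 0.75 (adjusted p = 0.041) that was not called without homozygous library 2 (adjusted p = 0.51), without heterozygous library 1 (adjusted p = 0.19) or without the filter (adjusted p = 0.057). The 1 gene lower was GRMZM2G180086, at 45.6 and 41.7 CPM in wild type, 41.2 and 40.2 CPM in heterozygotes and 31.9 and 30.8 CPM in homozygotes. Its difference of -0.35 ± 0.08 (adjusted p = 0.018) was not called by DESeq2 (adjusted p = 0.054) or without either homozygous library (adjusted p = 0.12 and 0.23). GRMZM2G322819 and GRMZM2G320305 missed the threshold at 1.25 ± 0.36 (adjusted p = 0.069) and 0.99 ± 0.34 (adjusted p = 0.12) and passed it without heterozygous library 2 (adjusted p = 0.030 and 0.041). Among genes of at least 1 CPM in either group, the lowest differences were those of GRMZM2G371079 at -0.81 ± 0.37 (adjusted p = 0.22), GRMZM2G071277 at -0.68 ± 0.38 (adjusted p = 0.33), GRMZM2G085467 at -0.65 ± 0.24 (adjusted p = 0.14) and GRMZM2G420108 at -0.57 ± 0.31 (adjusted p = 0.32), none of them called. Below that level WRKY53 was lowest, at -1.67 ± 0.61 (adjusted p = 0.13).

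Wild-type leaf entered the choice of genes, so its comparisons are a description. Homozygous against wild-type leaf gave 13 genes higher and 5 lower of the 85 (all genes: 9.16% higher, 9.59% lower and 18.8% in either direction), and heterozygous against wild-type leaf gave 0 called by edgeR's quasi-likelihood test, with 5 higher and 1 lower at an unadjusted p under 0.05 and 0 by DESeq2 (all genes: 0.145% called). For homozygous leaf DESeq2 called 9, and 6 were called without wild-type library 1 and 9 and 10 without homozygous libraries 1 and 2. The 5 lower, named because they were few, were GRMZM2G026780, WRKY53, GRMZM2G303149, GRMZM2G037189 and GRMZM2G180086. GRMZM2G026780 lies 13 genes from kn1 in the reference gene order, and the part of linkage to the Kn1-N allele was not tested. WRKY53 was at 0.974 and 1.32 CPM in wild-type, 0.536 and 1.06 CPM in heterozygous and 0.423 and 0.0971 CPM in homozygous leaf. The phosphatase gene PP2C19 was among the higher genes, at 15.7 and 19.1 CPM in wild type, 22.1 and 32.2 CPM in heterozygotes and 36.1 and 34.2 CPM in homozygotes.

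The remaining comparisons set kn1-e1 tissues beside sibling tissues that chose the genes, and they are a description of levels. High sibling tassel values and low sibling ear and SAM values were favoured by the choice itself. In tassel 1 gene was higher in kn1-e1, 92 were lower and 57 were not called (all genes: 2.35% higher, 5.55% lower and 7.91% in either direction), with a median log2 difference of -0.84. The kn1-e1 tassel mean as a percentage of the sibling mean ran from 13.1 to 402 with a median of 56.3, beside a median of 101.6 over all genes of at least 3 CPM. The called total was 61 without sibling library 3, 62 without sibling library 2 and 128 without kn1-e1 library 2, and DESeq2 called 1 higher and 64 lower.

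Among the named genes the mean in kn1-e1 tassel ran from 31.8% of the sibling mean in P4H4 to 137% in MAX1b, with MED26.15 at 59.8% and PIP2-6 at 71.6% in between. NIP3-1 was at 85.0, 74.2 and 68.5 CPM in kn1-e1 against 73.1, 72.2 and 68.6 CPM in sibling tassel, MYBE1 at 16, 16.8 and 15.3 against 14.7, 16.3 and 13.5 CPM and pht1 at 4.98, 5.79 and 4.86 against 4.96, 4.54 and 5.37 CPM. The libraries of both genotypes interleave in these 3 genes. P4H4 was at 23.1, 39.9 and 35.1 against 92.7, 107 and 109 CPM, WRKY53 at 2.15, 8.69 and 3.12 against 13.3, 13.1 and 15.0 CPM and EREB179 at 2.32, 1.87 and 2.51 against 6.20, 6.07 and 6.52 CPM. In those 3 every kn1-e1 library lay under every sibling library.

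The lowest relative levels in kn1-e1 tassel belonged to unnamed genes. GRMZM2G064360 was at 0.905, 1.08 and 0.460 CPM against 6.80, 5.65 and 6.21 CPM in siblings (log2 difference -2.95), GRMZM2G034623 at 0.339, 1.31 and 0.614 against 4.31, 3.33 and 2.31 CPM (-2.15) and GRMZM2G069694 at 1.13, 2.61 and 0.870 against 5.50, 5.17 and 7.26 CPM (-1.99). AC197705.4_FG001 was at 1.58, 9.77 and 5.27 against 37.9, 25.9 and 18.3 CPM (-2.32). GRMZM2G055802 was low in kn1-e1 tassel, at 6.05, 22.4 and 8.59 against 36.5, 55.6 and 61.0 CPM in siblings (-2.07), and not in the other kn1-e1 tissues. It was at 6.66 and 5.88 against 4.23 and 4.29 CPM in SAM. In ear it had 14 and 20 counts in kn1-e1 against 2 and 2 counts in siblings. In leaf, where the mutant allele is Kn1-N, it was at 8.40 and 9.03 CPM in homozygotes against 4.82 and 4.44 CPM in wild type. The 1 gene called higher in kn1-e1 tassel was GRMZM2G042133, with 27.4, 26.5 and 13.0 CPM against 8.41, 3.96 and 4.26 CPM in siblings (1.99). It was also higher in kn1-e1 ear, at 8.35 and 10.3 against 0.121 and 0.103 CPM. The next highest differences in tassel were small, 0.43 for MAX1b, 0.42 for GRMZM2G124663, 0.31 for GRMZM2G366873 and 0.25 for GRMZM2G081151.

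In ear the levels lay the other way. Of the 126 genes tested (24 did not pass the filter), 75 were higher and 3 lower in kn1-e1 ear than in sibling ear (all genes: 8.21% higher, 10.4% lower and 18.6% in either direction), with a median log2 difference of 0.93. The called total was 31 and 47 when sibling library 2 or 1 was left out, and without kn1-e1 ear library 1 it was 60 higher and 4 lower. Above both sibling ears stood kn1-e1 ear library 1 in 127 of the 150 genes and library 2 in 104. The choice favours low sibling ears, and the share over all genes was not computed for these counts. The 3 lower, named because they were few, were GRMZM2G151811 at -0.69, GRMZM2G397616 at -0.92 and GRMZM2G046458 at -0.64; among genes of at least 1 CPM in either ear group GRMZM2G076417 followed at -0.52, not called, and below that level MAX1b was at -1.14, also not called. GRMZM2G397616 and GRMZM2G151811 were not called by DESeq2 or without either sibling ear library, nor GRMZM2G397616 without kn1-e1 ear library 1. GRMZM2G014705 showed how far the highest differences rested on 1 library, with 15.1 and 0.668 CPM in kn1-e1 ear against 0.0603 and 0.103 CPM in sibling ear and a ratio of summed counts of 97.1 (95% interval 32.9 to 473.4, counting error only). The interval covers neither the gap between the libraries nor their spread. For ra3 both kn1-e1 ear libraries, at 25.9 and 24.9 CPM, were above the sibling ears at 14.8 and 19.0 CPM, and the same held for NIP3-1, at 26.5 and 31.1 against 16.3 and 17.3 CPM. The MADS34 libraries of both genotypes overlapped, at 1.59 and 2.21 against 3.08 and 1.96 CPM.

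Lower in kn1-e1 tassel and higher in kn1-e1 ear than in the siblings were 46 genes, which is 50% of the 92 lower in tassel and 61.3% of the 75 higher in ear; over all genes tested in both tissues it was 0.732%. Their number was 66 without kn1-e1 tassel library 2 and 34 without kn1-e1 ear library 1. In group means, 121 of the 150 lay under the sibling tassel and above the sibling ear. A choice of genes by high sibling tassel and low sibling ear favours both directions, and nothing beyond the counts is read from them.

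In SAM 84 of the 150 genes were tested and 66 were not. The SAM fit had the widest spread between libraries over all genes. Its coefficient of variation was 0.0853, against 0.0485 to 0.0603 in the other fits, so a lack of calls does not show equal levels. None of the 84 was called by edgeR's quasi-likelihood test in the main fit (all genes: 0.0434% higher, 0.120% lower and 0.164% in either direction), and 0 by DESeq2. At an unadjusted p under 0.05, 11 were higher and 6 lower, and the same share over all genes was not computed. Counts of 1 to 7 appeared when single libraries were left out, with 7 without sibling SAM library 2. Among genes of at least 1 CPM in either SAM group, the lowest log2 differences were -0.83 in GRMZM2G135960, -0.80 in LOB15 and -0.79 in both GRMZM5G818655 and GRMZM2G062129. At the other end, GRMZM2G066142 was at 0.766 and 1.63 CPM against 0.159 and 0.0622 CPM, a log2 difference of 3.35 on few counts. It was called in 6 other fits, namely without the filter, with either replicate block, and without sibling library 1, sibling library 2 or kn1-e1 library 1 (adjusted p from 0.00019 to 0.0052). GRMZM2G035749, GRMZM2G042789 and GRMZM2G099678 had differences of 1.61, 1.16 and 1.05. GRMZM2G018820 missed the threshold narrowly, with a difference of 0.70 (edgeR adjusted p = 0.058).

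Some of the genes lay next to each other in the reference assembly. Of the 109 with a place in its gene order, 8 had the next of them within 5 genes, and 5 genes (GRMZM2G106393, GRMZM2G106413, GRMZM2G106445, GRMZM2G106511 and GRMZM2G407146) were consecutive. GRMZM2G106393 was at 95.9, 173 and 106 CPM in kn1-e1 tassel, 50.1 and 48.2 CPM in kn1-e1 ear and 3.12 and 3.04 CPM in kn1-e1 SAM, with log2 differences of 1.38 ± 0.19 (adjusted p = 0.00014) from ear and 5.33 ± 0.29 from SAM. GRMZM2G106413 was at 65.4, 119.6 and 66.8 CPM in tassel and 32.4 and 30.0 CPM in ear, a difference of 1.46 ± 0.22 (adjusted p = 0.00025). GRMZM2G106445, at 113, 173 and 128 CPM and 66.2 and 56.8 CPM, differed by 1.203 ± 0.14 (adjusted p = 3.9e-05). All 3 had their highest kn1-e1 tassel value in library 2, and without it their differences from ear were 1.07, 1.11 and 1.004. The less abundant GRMZM2G106511, at 16.2, 26.7 and 14.02 CPM and 2.80 and 3.24 CPM, differed by 2.68 ± 0.27 (adjusted p = 9.5e-06), and GRMZM2G407146, at 5.71, 13.7 and 5.73 CPM and 3.23 and 2.67 CPM, by 1.54 ± 0.37 (adjusted p = 0.0073), with an adjusted p of 0.050 without ear library 2 and a difference of 0.98 without tassel library 2. GRMZM2G407146 had 0 counts in kn1-e1 SAM and was at least 99.7-fold higher in kn1-e1 tassel by the floor of 3 counts. GRMZM2G106511 had a ratio of summed counts to SAM of 225.6 (95% interval 77.0 to 1096, counting error only). A second run joined GRMZM2G135536, GRMZM2G066049 and GRMZM2G066142. Whether neighbouring genes share sequence, and so reads, was not tested.

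The lists of related genes were matched by gene name alone. Only the named genes of the 150 could fall in them, so the counts below say nothing of the unnamed ones. The MADS-box list of 34 genes held 1 (MADS34); of its 29 genes tested, 9 were higher and 14 lower in kn1-e1 tassel than in kn1-e1 ear, where 17.9% of all genes were higher and 17.3% lower. The inflorescence architecture list of 29 genes held ra3, with 14 higher and 8 lower of the 29 tested. Of 362 genes in transcription factor families, 8 were among the 150, and 59 were higher and 78 lower of the 266 tested. Of the 8 members, 7 were called higher against ear and 8 against SAM. The 28 aquaporins held NIP3-1 and PIP2-6, with 4 higher and 7 lower of the 16 tested. The lists of jasmonate (45 genes), auxin (58), other hormones (36), anther (5), photosynthesis (17), heat shock (16) and cell cycle genes (28) held 0 of the 150. In the same comparison, 21 jasmonate genes were higher and 5 lower of 34 tested, and 0 photosynthesis genes were higher and 8 lower of 10.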

How the data were processed

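RNA-seq read counts of 20 maize libraries were analysed as deposited. Per the labels' protocols, Trizol total RNA went into an Illumina TruSeq kit, which keeps no strand, so an overlapping antisense gene cannot be told apart from its partner. The deposited table holds the authors' raw counts per gene. The submitters' processing notes name CASAVA 1.8, TopHat 1.2.0, HTSeq and DESeq 1.4.1, with no order; build and annotation are not given in the sources used here, and reads shared by near-identical genes could be lost or split.

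The 150 genes and the gene lists were chosen with earlier results of these data known. Lists that needed product descriptions (cell wall, lignin, cuticle, proteases, most transport) could not be matched and were not used here. The other lists, the anther list among them, were matched by gene name alone and lack genes known only by product. The text names kn1, the 10 highest scores, all named genes, the smallest p values of the kn1-e1 tissue comparisons, the largest differences of the others among genes of at least 1 CPM in either group, and genes at the boundary of the choice.

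Counts were fitted with edgeR 4.0.16 in R 4.3.3 (quasi-likelihood F test, scaling by TMM, low counts removed by filterByExpr at minimum 10 and total 15). One fit held the 7 kn1-e1 libraries, and the leaf (6 libraries), tassel (6), ear (4) and SAM (4) libraries were fitted separately, which left 4, 3, 4, 2 and 2 residual degrees of freedom. The threshold was an adjusted p under 0.05 (Benjamini-Hochberg, across every gene in the fit). The p-values measure the spread between these libraries. Where 1 library is left in a group, the spread comes from the other groups of the fit. Standard errors came from the F statistic and are approximate. A fold against a group at 0 counts used a floor of 3 counts over the group, and intervals for 1 to 3 counts are exact 95% intervals of counting error. DESeq2 1.42.0, other scalings, no filter, a replicate block and leaving out each library were alternatives. Names and gene order came from RefSeq's Zm-B73-REFERENCE-NAM-5.0 table; 18775 of the IDs (47.3%) matched it. No sequences or coordinates were used.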

Additional observations from a re-analysis of the deposited data

Results flagged for a closer look

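In 51 of the 150 genes every kn1-e1 library lay on one side of the siblings in tassel and on the other in ear. Between tassel and SAM this held for 8 genes and between ear and SAM for 18. Counted were genes that were tested and had at least 1 CPM in either group in both tissues. The share over all genes was not computed, and the choice favours the tassel and ear pattern, so nothing is read from these counts. The 14 differences below are those among the genes named in the comparisons with siblings; none of these differences was tested, and the sibling libraries in them chose the genes. Values are the log2 difference (kn1-e1 against siblings) in the first tissue minus that in the second.

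Ear minus tassel was 8.05 in GRMZM2G131421, 7.63 in AC149829.2_FG002, 7.40 in AC197705.4_FG001 and 7.39 in GRMZM2G014705. In each of these the kn1-e1 tassel libraries lay under the siblings and both kn1-e1 ear libraries above them, with ear library 1 far above library 2. It was 3.67 in GRMZM5G818655, 2.63 in GRMZM2G035749 and 1.10 in GRMZM2G066142.

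SAM minus tassel was 2.64 in GRMZM2G055802, 3.69 in GRMZM2G066142, 3.30 in GRMZM2G035749 and 2.15 in GRMZM2G042789. SAM minus ear was -3.46 in LOB15 (GRMZM2G060544), -2.89 in GRMZM5G818655 and -1.41 in GRMZM2G062129. No SAM difference of these genes was called in the main edgeR fit, while that of GRMZM2G066142 was called in the alternative fits named above.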

How the results depend on the processing

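The 132 log2 differences of single genes were recomputed under 1409 alternatives: 1341 kept their direction and their side of the threshold, 30 came under and 30 over it, and 8 reversed. The reversals were AC197705.4_FG001 in kn1-e1 tassel against ear (0.0663 with the replicate block, 0.13 without tassel library 1, -1.23 and 3.30 without ear library 2 or 1), in the same comparison, without ear library 2 and 1 in turn, GRMZM2G131421 (-0.0277 to 4.40), GRMZM2G147399 (-0.0056 to 4.21), GRMZM2G074017 (-0.0654 to 3.28) and P4H4 (-0.47 to 1.49), and GRMZM2G081151 in kn1-e1 against sibling tassel (-0.15 without kn1-e1 library 1, 0.55 without library 3). Leaving out 1 library at a time gave 144 to 149 genes kept in the choice, 133 to 149 highest in kn1-e1 tassel, 87 to 128 higher in kn1-e1 tassel than ear and 142 to 148 than SAM. Calls came to 61 to 128 in tassel, 31 to 98 in ear, 1 to 7 in SAM, 2 to 15 in homozygous against heterozygous leaf, 6 to 12 in homozygous and 0 to 2 in heterozygous against wild-type leaf. Genes lower in tassel and higher in ear, 46 in all libraries, numbered 34 and 66 without ear library 1 or tassel library 2, fits chosen after seeing the data. DESeq2 called 3 in homozygous against heterozygous leaf, 9 in homozygous against wild-type leaf and 41 in ear. In SAM, 2 were called without the filter. Requiring at least 10 CPM in sibling tassel kept 102 of the 150 genes. Same-numbered libraries did not deviate together in every pair, so the numbers were not taken to pair them; the replicate block gave 111 (ear) and 147 (SAM) in kn1-e1 tassel, 6 in homozygous against heterozygous leaf, 107 in tassel, 86 in ear, 20 and 0 in homozygous and heterozygous against wild-type leaf, and 2 in SAM, where a crossed block, chosen after seeing the data (same-number correlation -0.22), also gave 2. The cause of these changes was not tested. Low counts in SAM and leaf left 66 and 65 of the 150 genes untested there.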
